A study of Mus musculus with 8 samples.

Results

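The genes studied here encode the vacuolar H+-ATPase (V-ATPase) and the machinery on the lysosome surface that passes nutrient signals to mTORC1, the mechanistic target of rapamycin complex. Members were taken by symbol. They are the listed genes whose symbol starts with Atp6v or Atp6ap (without Atp6v0d2) or with Lamtor, and a set of named genes for the Rag GTPases, the FLCN and FNIP proteins, Tfeb and Tfe3, the mTORC1 core, Rheb, the TSC proteins, Slc38a9 and the GATOR1 subunits. The table of 23761 genes holds 45 such rows, which are 44 protein-coding genes (20 of the V-ATPase and 24 of the sensing machinery) and the pseudogene Atp6v0c-ps1. Of the 45 members, 40 had the mean FPKM of at least 1 that was required for testing.

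Total RNA of bone marrow-derived macrophages (BMDMs) was sequenced from LysM mice, with the genotype LysM Cre/Cre, and from K2KO mice, with the genotype LysM Cre/Cre KLF2 flox/flox, all on a C57BL/6J background and aged 3 months. Both groups therefore carry Cre recombinase, driven by lysozyme M and meant for myeloid cells, and they differ in the floxed Klf2, which encodes a zinc-finger transcription factor. BMDMs are macrophages grown in culture from marrow cells, here in medium conditioned by L929 fibroblasts, and the labels mark the libraries of both groups as vehicle. Each group holds 4 libraries, numbered LysM0 to LysM3 or K2KO0 to K2KO3, from 4 mice per group, and the columns of the table give the genotype but not the mouse. Values are FPKM, which are fragments scaled to the length of the transcript and to all mapped fragments of a library, so read numbers are unknown and no counting interval can be given.

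The targeted gene was examined first. Klf2, on chromosome 8 of GRCm38 from 72319033 to 72321656 on the plus strand, was at 44.1, 52.9, 64.7 and 72.8 FPKM in LysM0 to LysM3 and at 45.5, 41.6, 59.2 and 59.3 FPKM in K2KO0 to K2KO3. The groups overlapped, and the difference of -0.18 on the log2 scale lay within the spread of the libraries (two-sided exact permutation test, p = 0.429, where the smallest p that 35 splits allow is 0.0286). Gene-level values do not tell which exons the fragments covered. The second group is therefore called the libraries labelled K2KO.

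The scale of the libraries and their markers were examined next. The summed FPKM were 497253, 537664, 540497 and 551608 in LysM libraries and 448235, 460383, 483726 and 501964 in the libraries labelled K2KO, which overlapped (two-sided exact permutation test, p = 0.0571). The 9 macrophage markers (10 rows, as Itgam is listed under 2 gene identifiers) summed to 3932 to 4148 FPKM in LysM libraries and 3684 to 3828 FPKM in those labelled K2KO, without overlap. This sum was not scaled to the summed FPKM of all genes, which were also lower in the group mean (531755 and 473577). Cd14 was at 969 to 1099 FPKM in LysM libraries and 664 to 930 FPKM in those labelled K2KO, also without overlap. It was not called (log2 fold change -0.32, limma adjusted p = 0.0630), and its change was -0.017 with quantile normalization. Cd68 was at 1637 to 1942 FPKM, Csf1r (the M-CSF receptor) at 480 to 600.3 FPKM and Adgre1 (F4/80) at 351 to 519 FPKM. Of 9 tested macrophage markers 1 was higher (Mertk) and 2 were lower (Lyz2 and Cx3cr1) in the libraries labelled K2KO, at the thresholds given below. With 1 library left out these calls held in 2, 4 and 2 of 8 fits, none held with ordinary least squares, and that of Mertk was lost after a GC content and length correction (0.20, limma adjusted p = 0.101). Lyz2, the lysozyme M gene, was at 11.5 to 22.5 FPKM, Mertk at 13.0 to 19.8 FPKM and Cx3cr1 at 1.32 to 5.79 FPKM.

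Markers of other cells were present at various levels, and their part in the results below was not tested. The 8 neutrophil markers summed to 152 to 278 FPKM, led by S100a9 at 85.4 to 170.1 FPKM, and 1 of 7 tested was lower (Camp, in 5 of 8 fits without 1 library and not with ordinary least squares). The 6 fibroblast markers summed to 0.163 to 1.31 FPKM in LysM libraries and 0.556 to 3.25 FPKM in those labelled K2KO, led by Dcn. The 7 osteoclast markers summed to 60.8 to 94.4 FPKM, led by Ctsk at 25.4 to 50.5 FPKM, with Calcr listed at 0 and none of 4 tested genes called. With a replicate block (described below) Ctsk and Dcstamp were called lower (log2 fold changes -0.42 and -0.45, limma adjusted p = 0.0375 and 0.0442). The 7 T and B cell markers and the 5 dendritic cell markers reached at most 5.44 and 4.30 FPKM in sum. In bulk RNA, fewer cells of a type and less RNA per cell cannot be told apart. A listed 0 was not read as absence, since Gapdh was at 0 to 0.4999 FPKM and Ctsd at 0 in all 8 libraries.

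The V-ATPase is a rotary proton pump. Its cytosolic V1 sector hydrolyses ATP and its membrane V0 sector carries protons into the lumen, which acidifies the lysosomes in which macrophages digest what they engulf. The pump also binds the Ragulator complex, which anchors the Rag GTPases on the lysosome. When amino acids are plentiful the Rags recruit mTORC1 to the lysosome, where Rheb switches it on, and when they are scarce the transcription factors TFEB and TFE3 enter the nucleus and bind CLEAR elements, short motifs built on an E-box, in the promoters of lysosomal genes.

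Stretches of promoters are shown first, because the E-box CACGTG is the core of the CLEAR element and genes of both directions carry it. RefSeq promoter windows of 250 bases before to 50 bases after the start (build GRCm38.p6) were found for 38 members, with 44 windows. CACGTG, which reads the same on both strands, was in 10 of the 44 member windows, or 22.7%, against 7.15% of all 32851 windows and 10.5% of the windows of tested genes. Of the tested members with a window, those holding it were Fnip1, Rheb and Rragc, which rose, Atp6v0b and Lamtor4, which fell, and Atp6v0d1, Atp6v0e, Atp6v1a and Lamtor1, which were not called. The longer TCACGTGA, which contains CACGTG and also reads the same on both strands, was in 3 member windows (Atp6v0d1, Atp6v0e and Atp6v1a), or 6.82%, against 0.974% of all windows and 2.04% of the windows of tested genes. Segments are written 5′ to 3′ on the strand of the gene, with the motif in capitals, and lie at chr5:138255342-138255403 on the plus strand (Lamtor4), chr4:117887330-117887385 on the minus strand (Atp6v0b), chr4:123917301-123917346 on the plus strand (Rragc), chr11:54438084-54438129 on the plus strand (Fnip1), chr5:24842432-24842477 on the minus strand (Rheb) and chr16:44139364-44139411 on the minus strand (Atp6v1a).
Lamtor4: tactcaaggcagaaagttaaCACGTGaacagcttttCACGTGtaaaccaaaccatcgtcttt
Atp6v0b: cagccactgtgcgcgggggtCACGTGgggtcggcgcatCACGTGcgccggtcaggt
Rragc: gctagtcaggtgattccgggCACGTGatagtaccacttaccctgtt
Fnip1: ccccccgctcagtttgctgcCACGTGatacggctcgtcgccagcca
Rheb: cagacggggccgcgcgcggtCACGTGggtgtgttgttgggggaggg
Atp6v1a: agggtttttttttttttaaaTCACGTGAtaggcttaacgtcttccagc

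Both Lamtor4 and Atp6v0b carry 2 copies of the E-box within these segments, and both were lower in the libraries labelled K2KO. Rragb, too low to be tested, holds the E-box with first bases at -127, -36 and -3 from the start. Whether copy number goes with direction was not tested. A match of letters is a description and not a shown binding site. The motif CCACNCCC, a box of the type that KLF factors bind, was searched on both strands. It was in 22.7% of member windows, against 17.6% of all windows and 22.9% of the windows of tested genes, so members held it about as often as tested genes did. Of the called members it was found in Rragd and Fnip1, which rose, and in Nprl2, which fell. The Rragd segment is shown because Rragd had the largest rise of the members and holds 3 matches, all read on the opposite strand, at chr4:32982873-32982997 on the plus strand.
Rragd: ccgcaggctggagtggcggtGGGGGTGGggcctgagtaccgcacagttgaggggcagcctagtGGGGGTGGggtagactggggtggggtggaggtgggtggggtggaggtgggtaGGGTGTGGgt

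Groups were compared by limma on log2(FPKM + 0.1) values over all 10920 tested genes. A gene was called at a Benjamini-Hochberg adjusted p under 0.05 with an absolute log2 fold change over 0.26. Of the 40 tested members 9 were called, or 22.5%, against 18.4% of all tested genes, so the members as a whole were called about as often as other genes. Higher in the libraries labelled K2KO were 5 members, where the background is 9.84%, namely Rragd, Fnip1, Fnip2, Rheb and Rragc. Lower were 4, where the background is 8.61%, namely Lamtor4, Nprl2, Lamtor2 and Atp6v0b. Of the 17 tested V-ATPase genes 1 was called, or 5.88%, and of the 23 tested sensing genes 8 were, or 34.8%. The difference between these shares was not tested. The median log2 fold change of the members was -0.014, and that of all tested genes was 0.011.

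**Figure D1:**
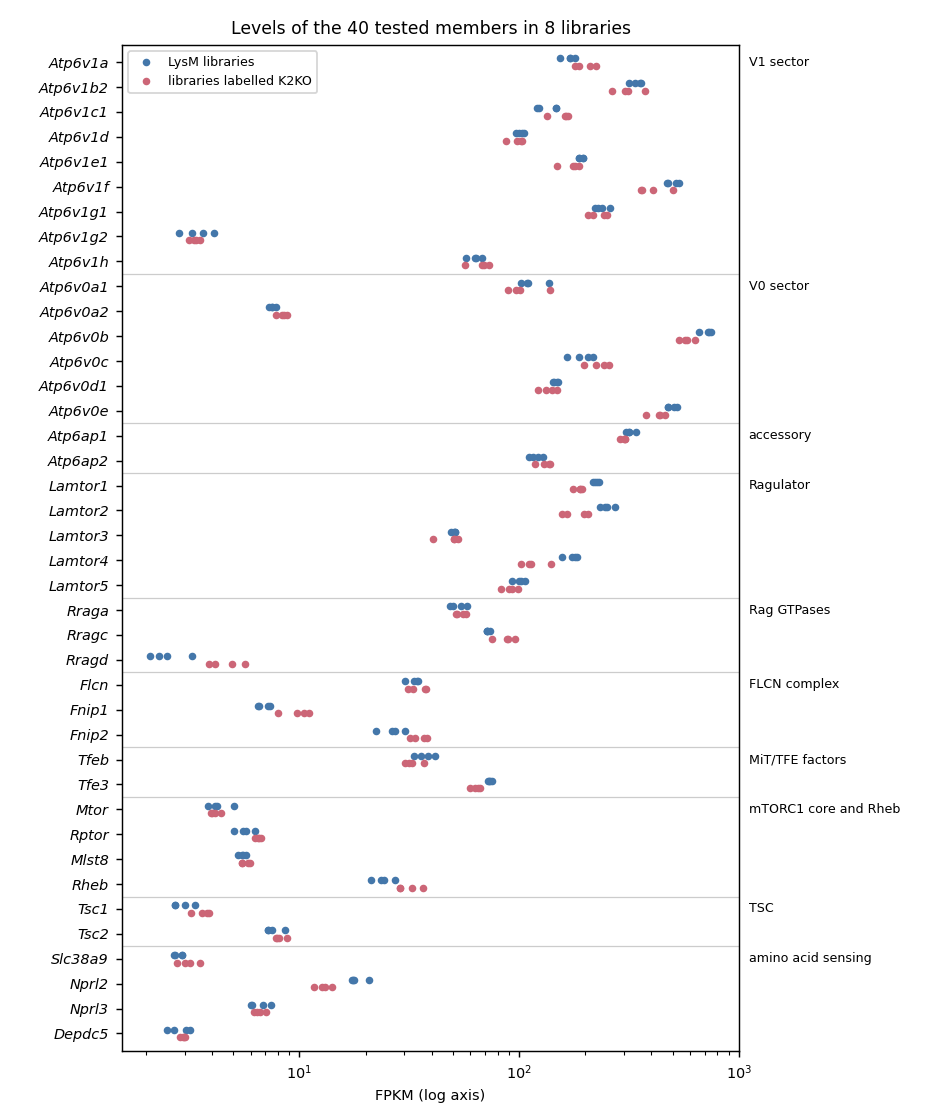
FPKM (log axis) of the 40 tested members in each of the 8 libraries, grouped by role, with LysM libraries in blue and libraries labelled K2KO in red. V-ATPase and Ragulator genes mostly lie above 40 FPKM, and Mtor, Rptor, Mlst8, Tsc1 and Slc38a9 lie below 10 FPKM in every library.

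The V1 sector showed no called gene among 9 tested, where 18.4% of all tested genes were called. Its summed level was 1743 ± 38.9 FPKM (SD, n = 4) in LysM libraries and 1649 ± 144 FPKM (SD, n = 4) in those labelled K2KO, and these overlapped. Atp6v1a, the catalytic A subunit, was at 180, 170, 170 and 154 FPKM in LysM0 to LysM3 and at 180, 223, 210 and 188 FPKM in K2KO0 to K2KO3. Only K2KO0 fell within the LysM range, and the difference of 0.25 on the log2 scale (standard error, SE, 0.084, limma adjusted p = 0.0664) missed the threshold. Atp6v1a was called higher with quantile normalization (0.43, limma adjusted p = 0.0260) and with upper quartile scaling (0.29, limma adjusted p = 0.0406). It was called in 0 of 8 fits without 1 library, and its change was 0.12 after the GC content and length correction (limma adjusted p = 0.281). Atp6v1f, which encodes the F subunit of the central rotor stalk, was at 473, 517, 477 and 537 FPKM in LysM libraries and at 359, 365, 409 and 501 FPKM in those labelled K2KO. K2KO3 alone lay among the LysM values (log2 fold change -0.31, SE 0.11, limma adjusted p = 0.0748). The change of Atp6v1f was -0.12 with quantile normalization (limma adjusted p = 0.298) and -0.071 after the GC content and length correction (limma adjusted p = 0.486).

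The remaining V1 genes showed smaller differences. Log2 fold changes were -0.13 for Atp6v1b2 (the nucleotide-binding B subunit), 0.22 for Atp6v1c1 (the C subunit, which leaves when the sectors part), -0.052 for Atp6v1d (rotor), -0.15 for Atp6v1e1 and -0.052 for Atp6v1g1 (peripheral stalks) and 0.078 for Atp6v1h (the regulatory H subunit). With quantile normalization Atp6v1b2 (0.043), Atp6v1d (0.087), Atp6v1e1 (0.0050) and Atp6v1g1 (0.14) were positive, and with the GC content and length correction Atp6v1h was at -0.096. Atp6v1c1 was called higher with quantile normalization (0.37, limma adjusted p = 0.0436) but not after the GC content and length correction (0.19, limma adjusted p = 0.220). Atp6v1b2 lies 3.23 Mb from Klf2 on chromosome 8. Among isoforms, Atp6v1g1 made up 98.6% of the G subunit FPKM in both groups, with Atp6v1g2 at 2.83 to 4.06 FPKM. Atp6v1e2 and Atp6v1g3 were listed at 0 in all 8 libraries. A near-identical copy, Gm13453 at 58.8 and 53.7 FPKM in the group means, makes the value of Atp6v1g1 uncertain, as a copy that was not analysed here does for Atp6v1f.

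The V0 sector held the only called V-ATPase gene, Atp6v0b. It encodes the c″ subunit of the proton-carrying ring and lies on chromosome 4 from 117884326 to 117887333 on the minus strand. Its level was 723, 751, 661 and 729 FPKM in LysM0 to LysM3 and 535, 581, 572 and 635 FPKM in K2KO0 to K2KO3. Every library labelled K2KO lay below every LysM library, and the log2 fold change was -0.30 (SE 0.075, limma adjusted p = 0.0260). Atp6v0b shares sequence with the antisense gene Gm12841, whose mean was 0 FPKM in LysM libraries and 0.059 FPKM in those labelled K2KO, and is uncertain for that. With a library left out in turn it was called in 3 of 8 fits, and once each library was corrected for GC content and length (described below) the change was -0.054 (limma adjusted p = 0.533). The call was also lost with quantile normalization (-0.062, limma adjusted p = 0.509) and with upper quartile scaling (-0.259, just under the fold threshold in size).

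Other V0 genes were not called. Atp6v0c, the main c subunit of the ring, was at 194 ± 22.6 FPKM (SD, n = 4) in LysM libraries and 231 ± 26.0 FPKM (SD, n = 4) in those labelled K2KO (log2 fold change 0.25, limma adjusted p = 0.124), and the change was 0.45 after the GC content and length correction (limma adjusted p = 0.0504). Atp6v0e, a small V0 subunit, was at 477 to 525 FPKM in LysM libraries and 378 to 461 FPKM in those labelled K2KO. These did not overlap, but the change of -0.22 missed the threshold (limma adjusted p = 0.0696). Atp6v0a1, Atp6v0a2 and Atp6v0d1 had log2 fold changes of -0.11, 0.15 and -0.11, and with quantile normalization Atp6v0a1 was at 0.018 and Atp6v0d1 at 0.061. Summed over the V0 members, the level was 1675 ± 87.9 FPKM (SD, n = 4) against 1490.0 ± 85.6 FPKM (SD, n = 4), and only K2KO1 reached the lowest LysM sum. This sum leaves out Tcirg1 (group means 362 and 371 FPKM) and Atp6v0d2 (75 and 109 FPKM), V0 genes outside the symbol rule. It was not scaled to the summed FPKM of all genes, which were 531755 and 473577 in the group means. Atp6v0c has a near-identical copy, Atp6v0c-ps2, that was not analysed here, so its value is uncertain, and the member Atp6v0c-ps1, another copy, was listed at 0 in 6 of 8 libraries. The isoform Atp6v0e2 stayed at 0.249 to 0.674 FPKM.

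The accessory proteins Atp6ap1, an assembly factor, and Atp6ap2, the (pro)renin receptor, changed little. Atp6ap1 was at 306 to 340 FPKM in LysM libraries and at 290 to 303 FPKM in those labelled K2KO, a log2 fold change of -0.097 (limma adjusted p = 0.251). Its groups did not overlap, but with quantile normalization the sign turned, to 0.085. Atp6ap2 had a log2 fold change of 0.13 (limma adjusted p = 0.218), and -0.048 after the GC content and length correction.

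The choice of a and d isoforms sets where the pump sits and in which cells it works, and Tcirg1 (a3) and Atp6v0d2 (d2) are the forms typical of osteoclasts and macrophages. Both lie outside the symbol rule, and neither was called. Tcirg1 made up 74.8 ± 1.23% (SD, n = 4) of the a subunit FPKM in LysM libraries and 76.5 ± 2.59% (SD, n = 4) in those labelled K2KO. The share of Atp6v0a1 was 23.6% and 21.8%, and that of Atp6v0a2 was 1.57% and 1.73%. Atp6v0d1, the ubiquitous d form, held 60.3, 65.1, 70.7 and 70.6% of the d subunit FPKM in LysM0 to LysM3 and 60.05, 44.9, 54.9 and 66.7% in K2KO0 to K2KO3. K2KO1 had the lowest share, and the groups overlapped for every a and d isoform.

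**Figure D2:**
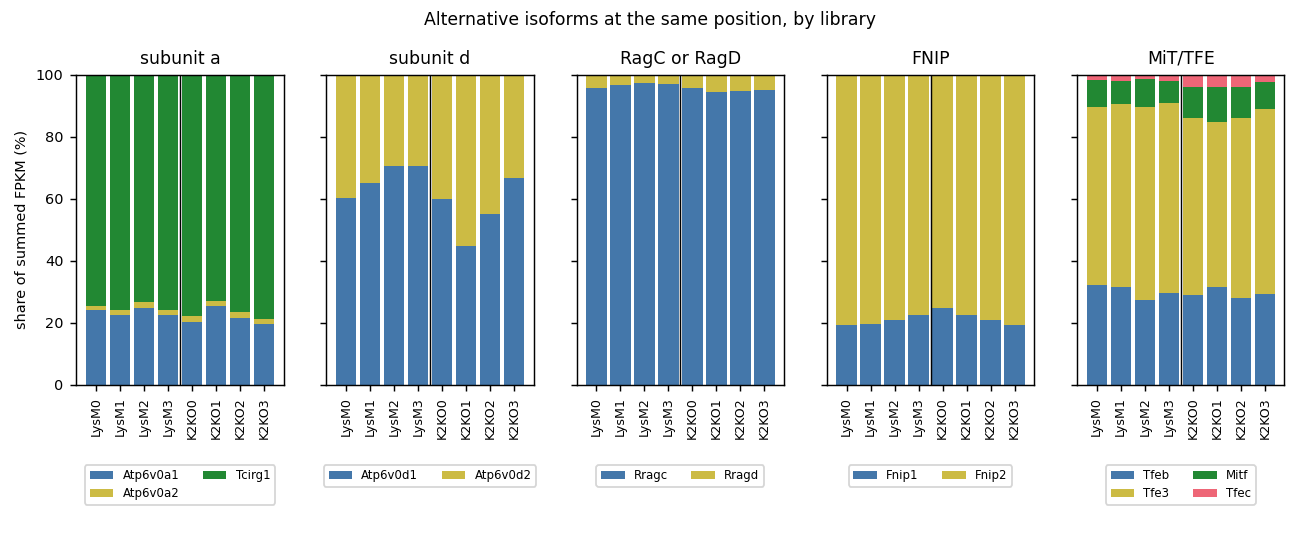
Share (%) of each isoform in the summed FPKM of its position, by library, with a line between the LysM libraries and those labelled K2KO. The groups did not overlap for Rragc and Rragd and for Tfec, and they overlapped for all other isoforms shown.

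All 5 Ragulator genes had a negative log2 fold change, and 2 of them were called lower, where 8.61% of all tested genes were. Their median was -0.26, against 0.011 for all tested genes, and it was -0.085 with quantile normalization and -0.18 with the GC content and length correction. The sign of Lamtor3 turned with quantile normalization, to 0.024. The summed level was 756, 810, 824 and 810 FPKM in LysM0 to LysM3 and 558, 607, 645 and 690 FPKM in K2KO0 to K2KO3. The groups did not overlap.

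Lamtor4, on chromosome 5 from 138255482 to 138259398 on the plus strand, had the largest fall of the members. It encodes 1 of the subunits that Lamtor1 wraps into the complex. Its level was 157, 184, 175 and 181 FPKM in LysM libraries and 102, 111, 113 and 140.0 FPKM in those labelled K2KO. Every library labelled K2KO lay below every LysM library, with K2KO3 closest to them. The change amounted to a log2 fold change of -0.58 (SE 0.10, limma adjusted p = 0.0112), a fall of 33.3%. It was called in all 8 fits without 1 library, and the change was -0.39 after the GC content and length correction (limma adjusted p = 0.0196).

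Lamtor2 (p14), which pairs with Lamtor3 (MP1) in the complex, lies on chromosome 3 from 88549819 to 88553074 on the minus strand. It was at 235, 245, 274 and 251 FPKM in LysM0 to LysM3 and at 157, 165, 198 and 205 FPKM in K2KO0 to K2KO3. Groups were separate, and K2KO2 and K2KO3 lay nearer to the LysM values. In log2 units the change was -0.48 (SE 0.099, limma adjusted p = 0.0168). The call was lost without LysM3, with ordinary least squares (adjusted p = 0.0506), with no filter on low values (limma adjusted p = 0.0639) and after the GC content and length correction, where the change was -0.20 (limma adjusted p = 0.104).

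Lamtor1, the lipid-anchored scaffold that ties the complex to the lysosome membrane, lay just outside the fold threshold. It was at 223, 231, 218 and 226 FPKM in LysM libraries and 176, 190.4, 190.05 and 194 FPKM in those labelled K2KO, with no overlap. The log2 fold change was -0.26, below 0.26 in size before rounding, with an SE of 0.057 and a limma adjusted p of 0.0193. It was -0.085 with quantile normalization (limma adjusted p = 0.278) and -0.18 after the GC content and length correction (limma adjusted p = 0.0433). Lamtor3 and Lamtor5 had log2 fold changes of -0.062 (limma adjusted p = 0.613) and -0.14 (limma adjusted p = 0.190), and their groups overlapped. Lamtor1, Lamtor3 and Lamtor5 have near-identical copies in the table, among them Gm5900 for Lamtor3 at 17.0 and 29.3 FPKM in the group means, and are uncertain for that. No such copy was found for Lamtor2 or Lamtor4.

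The Rag GTPases, which work as a pair of RagA or RagB with RagC or RagD, had 2 of 3 tested genes called higher, where 9.84% of all tested genes were. Rragd, on chromosome 4 from 32983037 to 33022180 on the plus strand, encodes RagD. Its level was 3.24, 2.50, 2.08 and 2.30 FPKM in LysM0 to LysM3 and 4.14, 5.65, 4.96 and 3.86 FPKM in K2KO0 to K2KO3. Each K2KO value was above the highest LysM value. Its rise was 0.86 on the log2 scale (SE 0.16, limma adjusted p = 0.0126), or 1.81-fold, and 0.66 after the GC content and length correction (limma adjusted p = 0.0269). Without LysM3 or with no filter on low values (limma adjusted p = 0.0576) the call was lost, and the change stayed between 0.76 and 0.98 over the 8 fits without 1 library.

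Rragc, on the same chromosome from 123917446 to 123936997 on the plus strand, encodes RagC. It was at 71.7, 73.4, 71.6 and 71.1 FPKM in LysM libraries and at 89.4, 96.2, 87.8 and 75.4 FPKM in those labelled K2KO. The LysM values were close together, and K2KO3 lay just above them (log2 fold change 0.27, SE 0.076, limma adjusted p = 0.0364). Rragc shares sequence with the antisense gene 4930535I16Rik, listed at 0 in all 8 libraries, and is uncertain for that. It was called in 1 of the 8 fits without 1 library, and its change was 0.10 after the GC content and length correction. Per length, RagC transcripts were far more abundant than RagD transcripts. Rragd made up 3.39 ± 0.648% (SD, n = 4) of their summed FPKM in LysM libraries and 5.05 ± 0.502% (SD, n = 4) in those labelled K2KO, without overlap, as follows from the values above. Rraga, which encodes RagA, was at 48.7 to 58.1 FPKM in LysM libraries and 51.4 to 57.5 FPKM in those labelled K2KO (log2 fold change 0.037, limma adjusted p = 0.731, and -0.034 after the correction), and Rragb (RagB) stayed at 0.070 to 0.192 FPKM.

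Folliculin and its partners FNIP1 and FNIP2 act on RagC and RagD as a GTPase-activating complex, which is needed for the phosphorylation of TFEB and TFE3 by mTORC1. Both partner genes were called higher and Flcn was not. Fnip1, on chromosome 11 from 54438199 to 54518235 on the plus strand, was at 7.31, 6.47, 7.17 and 6.57 FPKM in LysM0 to LysM3 and at 10.5, 11.1, 9.76 and 8.02 FPKM in K2KO0 to K2KO3. No values overlapped between groups, with K2KO3 the lowest of its group. As a log2 fold change this was 0.50 (SE 0.10, limma adjusted p = 0.0147), and it was called in 6 of 8 fits without 1 library. After the GC content and length correction the change of 0.21 (limma adjusted p = 0.0464) was under the fold threshold.

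Fnip2, on chromosome 3 from 79455974 to 79567796 on the minus strand, was at 30.3, 26.3, 27.2 and 22.4 FPKM in LysM libraries and 31.9, 38.1, 36.9 and 33.6 FPKM in those labelled K2KO. Groups were separate, but LysM0 and K2KO0 were close. Its log2 change was 0.41 (SE 0.098, limma adjusted p = 0.0244), called in 3 of 8 fits without 1 library, and 0.30 after the correction (limma adjusted p = 0.0610). Flcn was at 33.1 ± 1.89 FPKM (SD, n = 4) and 34.7 ± 3.29 FPKM (SD, n = 4), which is a log2 change of 0.066 (limma adjusted p = 0.564). Fnip2 held 79.3% of the summed FNIP FPKM in LysM libraries and 78.1% in the libraries labelled K2KO, with overlap.

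**Figure D3:**
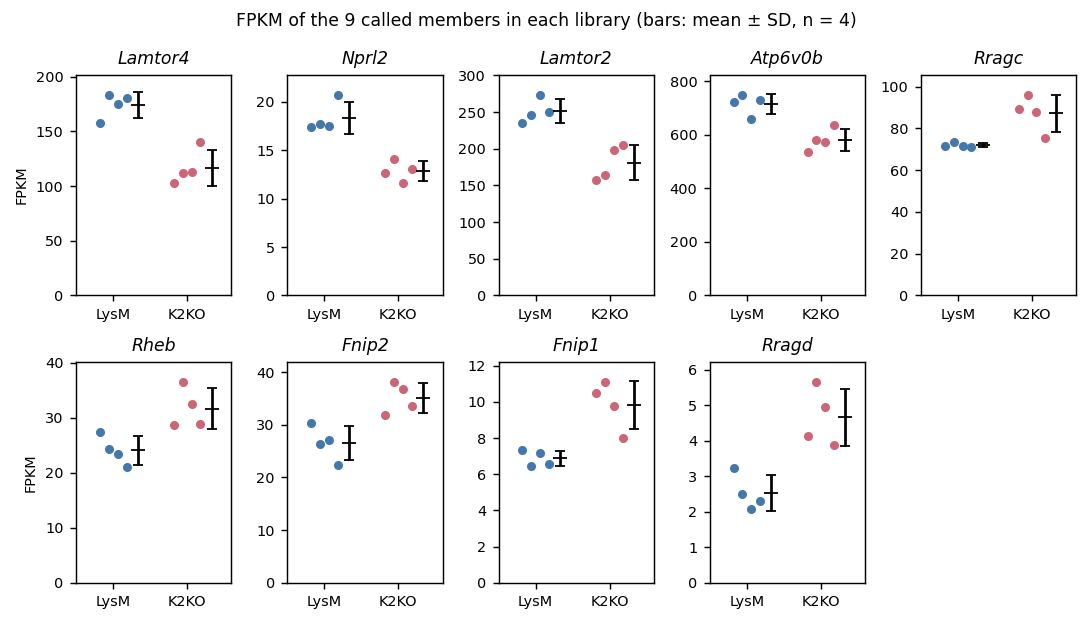
FPKM of the 9 called members in each library (points, from replicate number 0 to 3 within a group), with the mean and SD of 4 libraries beside them and axes starting at 0. The groups do not overlap for any of the 9, and K2KO3 is the library of its group nearest to the LysM values for Lamtor4, Lamtor2, Atp6v0b, Rragc, Fnip1 and Rragd.

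Neither of the member genes for the MiT/TFE transcription factors was called. Tfe3 was at 73.0, 72.5, 75.6 and 73.8 FPKM in LysM0 to LysM3 and at 59.6, 62.8, 65.1 and 66.3 FPKM in K2KO0 to K2KO3. The groups did not overlap, and the log2 fold change of -0.22 (SE 0.055, limma adjusted p = 0.0274) passed on p but not on size. The p did not pass with quantile normalization (-0.088, limma adjusted p = 0.220) or after the GC content and length correction (-0.19, limma adjusted p = 0.0769). Tfeb was at 33.4 to 41.2 FPKM in LysM libraries and at 30.4 to 37.0 FPKM in those labelled K2KO. These overlapped (log2 fold change -0.18, limma adjusted p = 0.160), and the sign turned after the GC content and length correction, to 0.081. Over the 4 factors of the family, Tfe3 held 59.9% of the FPKM in LysM libraries and 57.0% in the libraries labelled K2KO, and Tfeb 30.2% and 29.5%.

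Of mTORC1 itself, the kinase Mtor, its scaffold Rptor (Raptor, which docks substrates and binds the Rags) and Mlst8 were all low per length and none was called. With quantile normalization the sign of Mlst8 turned (-0.019). Their log2 fold changes were -0.056, 0.21 and 0.056 (limma adjusted p = 0.673, 0.0722 and 0.511). Rptor was at 5.02 to 6.27 FPKM in LysM libraries and 6.28 to 6.71 FPKM in those labelled K2KO, without overlap. Rheb, the small GTPase that activates mTORC1, was called higher. It lies on chromosome 5 from 24802823 to 24842624 on the minus strand and was at 27.3, 24.3, 23.5 and 21.1 FPKM in LysM0 to LysM3 and at 28.7, 36.5, 32.4 and 28.8 FPKM in K2KO0 to K2KO3.

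The groups of Rheb did not overlap, but LysM0 and K2KO0 were close. The log2 fold change was 0.39 (SE 0.10, limma adjusted p = 0.0290), called in 2 of 8 fits without 1 library, and 0.21 after the correction (limma adjusted p = 0.132). The TSC proteins, which switch Rheb off, were not called. Tsc1 was at 2.96 ± 0.297 FPKM (SD, n = 4) and 3.63 ± 0.290 FPKM (SD, n = 4), which is a log2 change of 0.29 (limma adjusted p = 0.0589), and Tsc2 changed by 0.097 (limma adjusted p = 0.349). Tsc2 overlaps Pkd1, and whether counting used strand is not stated.

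Among the genes of amino acid sensing, Nprl2 was called lower. It encodes a subunit of GATOR1, the complex that switches off RagA and RagB when amino acids are scarce, and lies on chromosome 9 from 107542226 to 107545706 on the plus strand. Its level was 17.4, 17.7, 17.5 and 20.7 FPKM in LysM0 to LysM3 and 12.6, 14.1, 11.6 and 13.0 FPKM in K2KO0 to K2KO3. Every library labelled K2KO lay below every LysM library, and LysM3 stood above the rest. The log2 fold change was -0.51 (SE 0.081, limma adjusted p = 0.00954), it was called in all 8 fits without 1 library, and it was -0.38 after the GC content and length correction (limma adjusted p = 0.0265). Nprl2 lies 1.11 Mb from Rpl29, a ribosomal protein gene listed at 0 to 0.253 FPKM in LysM libraries and at 337 to 435 FPKM in those labelled K2KO. Within 5 Mb of Nprl2, 35 of 110 other tested genes were called, or 31.8%, against 18.4% of all tested genes. Of these, 21 were higher and 14 lower. The same share was 38.5% (5 of 13) around Fnip2, 25.0% around Fnip1 and 12.7% to 18.4% around the other 6 called members.

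The other GATOR1 genes did not share this difference. Nprl3 was at 6.56 ± 0.664 FPKM (SD, n = 4) and 6.57 ± 0.351 FPKM (SD, n = 4), and Depdc5 had a log2 fold change of 0.058 (limma adjusted p = 0.671), with a negative sign under quantile normalization (-0.052) and after the correction (-0.065). Nprl3 overlaps Mpg and is uncertain for that. Slc38a9, the lysosomal carrier that senses arginine, had a log2 fold change of 0.14 (limma adjusted p = 0.264), and -0.040 after the correction.

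**Figure D4:**
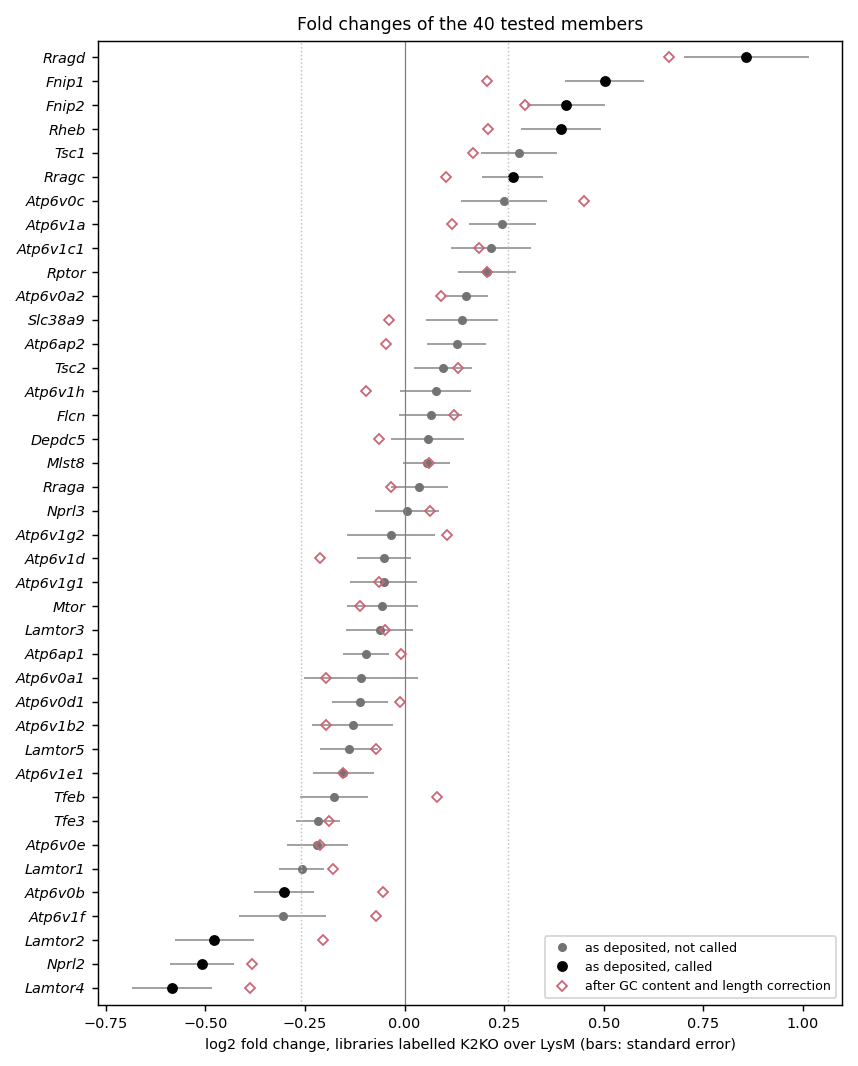
Log2 fold change (libraries labelled K2KO over LysM) of the 40 tested members, sorted, with SEs. Filled points are values as deposited (black where called), open diamonds are values after the GC content and length correction, and dotted lines mark the fold threshold of 0.26. The extremes are Rragd at 0.86 and Lamtor4 at -0.58.

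Transcript length and GC content moved with the fold change. Across the 40 members, which are not replicates, the log2 fold change had a Spearman's rho of 0.72 with transcript length and -0.44 with GC content. Across 10899 tested genes the values were 0.36 and -0.39. In the eighth of the tested genes with the lowest GC content 23.6% were called higher and 1.47% lower, and in the eighth richest in GC these were 1.98% and 20.98%. Lamtor2 and Atp6v0b have mean transcript lengths of 565 and 718 bases with GC contents of 55.7% and 56.2%, while Fnip1 has 4497 bases and 40.4%.

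Each library was then corrected by local regression, first on GC content and then on length. With this correction 3 of the 40 members were called, against 8.89% of all tested genes. Lamtor4 and Nprl2 were lower (background 3.86%) and Rragd was higher (background 5.03%). Of all tested genes, 971 were called after the correction and 750 of these were among the 2014 called before it. Whether the relation to length and GC content came from the libraries' preparation or from the cells was not tested.

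**Figure D5:**
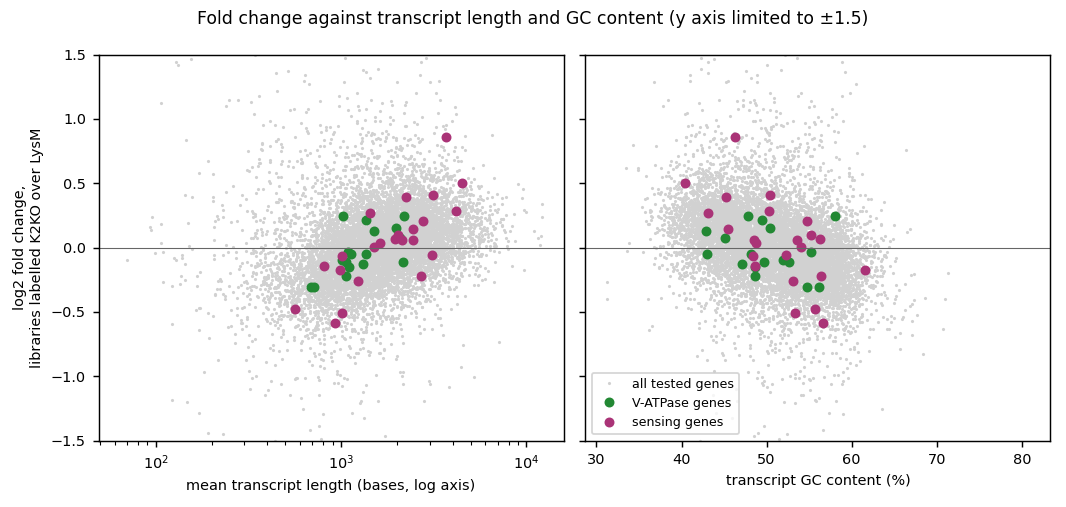
Log2 fold change (libraries labelled K2KO over LysM) against mean transcript length (log axis, left) and transcript GC content (right) for all tested genes (grey), V-ATPase genes (green) and sensing genes (purple), with the y axis limited to ±1.5. Members rise with length (rho 0.72) and fall with GC content (rho -0.44), as the grey points do more weakly for length (rho 0.36).

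Groups of 4 libraries did not overlap for 15 of the 40 tested members, 7 higher and 8 lower, against 23.1% of all tested genes (12.9% higher and 10.2% lower). At an unadjusted p under 0.05 there were 18 members, against 4126 of the 10920 tested genes. Only Lamtor4 and Nprl2 were called both in every fit without 1 library and after the correction. Without LysM3 they were the only members called.

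Other genes of the pathway were followed on lists of 66 tested genes, of which 9 were called, or 13.6%, with 8 higher and 1 lower, against 18.4% of all tested genes (9.84% higher and 8.61% lower). The 10 tested assembly factors and regulators of the V-ATPase gave 5 called higher and none lower, beside backgrounds of 9.84% and 8.61%. Among them were Dmxl1 and Dmxl2, the rabconnectins that help V1 join V0, with log2 fold changes of 0.65 (limma adjusted p = 0.0166) and 0.62 (limma adjusted p = 0.0179). Wdr7, which works with the rabconnectins, rose by 0.29 (limma adjusted p = 0.0389). Oxr1 and Ncoa7, which share the TLDc domain that binds V1, rose by 0.48 (limma adjusted p = 0.00902) and 0.32 (limma adjusted p = 0.0473). The call held in 8 of 8 fits without 1 library for Oxr1, 7 for Dmxl2, 5 for Dmxl1, 2 for Wdr7 and 1 for Ncoa7. The groups of Ncoa7 overlapped, and neither Ncoa7 nor Wdr7 was called with quantile normalization or ordinary least squares. Oxr1 was at 11.2, 10.3, 11.8 and 10.8 FPKM in LysM0 to LysM3 and at 15.4, 16.8, 15.8 and 13.7 FPKM in K2KO0 to K2KO3, without overlap. The correction for GC content and length took Dmxl1 to 0.30, Dmxl2 to 0.36, Wdr7 to 0.13 and Ncoa7 to 0.065, and none of these 4 was then called. With it Oxr1 (0.28) and Tldc1 (0.39), another TLDc gene, were the called genes of this list.

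The transcription factor Tfec, the MiT/TFE member found mainly in macrophages and their relatives, rose by 0.80 as a log2 fold change (SE 0.18, limma adjusted p = 0.0203). It was at 2.32, 2.50, 1.77 and 2.60 FPKM in LysM0 to LysM3 and at 4.10, 4.79, 4.67 and 2.85 FPKM in K2KO0 to K2KO3. The groups did not overlap, with K2KO3 close to the LysM values. Its call held in 4 of 8 fits without 1 library and was lost with ordinary least squares (adjusted p = 0.0631) and after the GC content and length correction (0.58, limma adjusted p = 0.0582). Its share of the family's FPKM was 1.87 ± 0.308% (SD, n = 4) in LysM libraries and 3.67 ± 0.748% (SD, n = 4) in those labelled K2KO. Mitf changed by 0.15 (limma adjusted p = 0.373).

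Lysosomal genes of the CLEAR network, the targets of these factors, were mostly not called, with 2 of 26 higher (7.69%, against 9.84% of all tested genes), none lower and a median log2 fold change of 0.043. Gla and Tpp1, a galactosidase and a peptidase of the lysosome, both rose by 0.29 (limma adjusted p = 0.0217 and 0.0316), called in 4 and 2 of 8 fits without 1 library. After the correction Tpp1 (0.40) and Ctsa (0.29) were called higher in this list. Lamp1, a main protein of the lysosome membrane, was at 1211 ± 55.1 FPKM (SD, n = 4) and 1257 ± 47.8 FPKM (SD, n = 4), which is a log2 change of 0.054 (limma adjusted p = 0.572).

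The remaining lists hold regulators, partners and substrates of mTORC1. Beside their counts, the share over all tested genes is 18.4% called, with 8.61% called lower. Of the 8 genes of GATOR2 and KICSTOR, which act on GATOR1, 1 was called, and it was lower. This was Kptn, a KICSTOR subunit, with a log2 fold change of -0.35 (limma adjusted p = 0.0260), and its call held in 3 of 8 fits without 1 library. It was not called after the correction (-0.17, limma adjusted p = 0.187). None of the 3 tested cytosolic amino acid sensors, none of the 8 partners of mTOR and TSC and none of the 7 mTORC1 substrates were called. Among the substrates Eif4ebp2, a repressor of translation, came nearest, with a log2 fold change of 0.55 (SE 0.19, limma adjusted p = 0.0697), and its groups overlapped.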

How the data were processed

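The authors deposited a table of FPKM for 23761 genes in 8 libraries, made with Cufflinks on mm10. The aligner is TopHat2 in the study's methods and STAR in the submitters' processing notes, which also name Cuffdiff, and versions are not given in the sources used here. In the study's methods libraries were made with a stranded total RNA kit, but the labels and the methods name different RNA kits. Columns were matched to a genotype by name. Depth is unknown, and fragment-sized steps among low values were not sharp enough to recover it.

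Values were transformed to log2(FPKM + 0.1), genes under a mean FPKM of 1 were left out, and the remaining 10920 were fitted by limma 3.58.1 (intensity trend, no covariate, all 8 libraries) in R 4.3.3. The pseudocount makes fold changes of low genes smaller. P-values were Benjamini-Hochberg adjusted over all tested genes and measure the spread between the 4 libraries of a group. Single values were compared by exact permutation. Transcript length and GC content came from GENCODE M21, which matched 23645 genes, and promoter sequences from RefSeq. Copies were genes with at least 95% identity over at least 200 bases (BLAST 2.17.0). The procedure was tested on simulated data, and the outcome is not reported here.

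The text names every member (in full those called and, by role, the most abundant and the most changed), the called genes of each pathway list (up to 4, largest change first) and cell type markers. Isoforms, reference genes, copies and Wdr7, Lamp1, Tldc1, Ctsa, Mitf and Eif4ebp2, and full values of other members such as Atp6v1a, Atp6v0c and Lamtor1, were added after their values were seen. Members and lists were chosen with earlier results of these data known. Genes of the lists without a row in the table, among them Atp6v1b1, Atp6v0a4 and Ctsb, were not analysed here. Alternatives were other pseudocounts, filters and scalings, no intensity trend, ordinary least squares, no limit on the fold change, a GC content and length correction (local regression, span 0.3), a replicate block, and each library left out.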

Additional observations from a re-analysis of the deposited data

Results flagged for a closer look

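In 3 of 72 groups of 4 libraries, a library stood far from the other 3, where chance gives 3.6. Atp6ap1 was at 290 FPKM in K2KO0, below the other libraries labelled K2KO. Dmxl1 was at 1.93 FPKM in K2KO3, below the rest of its group. Nprl2 was at 20.7 FPKM in LysM3, above the other LysM libraries, and it was called lower with LysM3 left out as well.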

How the results depend on the processing

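As reported, 2014 genes and 9 members were called. With no filter on low values these numbers were 483 and 2 (Lamtor4 and Nprl2), with ordinary least squares 746 and 5, and with the GC content and length correction 971 and 3. Ordinary least squares lost Fnip2, Rheb, Rragc and Lamtor2 (adjusted p = 0.0662, 0.0731, 0.0689 and 0.0506). Of the genes called in these 3 settings 412, 737 and 750 were among the 2014. When fold size was not limited, 2283 genes and 11 members passed, adding Lamtor1 and Tfe3. Leaving out 1 library gave 337 genes and 2 members (without LysM3) to 2837 genes and 13 members (without K2KO3). Lamtor4 and Nprl2 were called under every alternative run. Upper quartile scaling gave 2083 genes, of which 64.1% were higher against 53.3% as deposited, and 9 members, with Atp6v1a in place of Atp6v0b. Quantile normalization gave 10 members, without Atp6v0b and with Atp6v1a and Atp6v1c1.

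Signs turned for 11 of the 40 tested members with quantile normalization, 7 with the GC content and length correction and 1 (Atp6v1g2) with upper quartile scaling, none of them called. With quantile normalization Nprl3 was at -0.057, Atp6ap1 at 0.085 and Lamtor3 at 0.024 on the log2 scale. With the GC content and length correction, with or without the block, Atp6ap2 was at -0.048, Rraga at -0.034 and Tfeb at 0.081. Without 1 library, Tcirg1 ranged from -0.018 to 0.12, Rraga from -0.0012 to 0.084 and Lamtor3 from -0.10 to 0.024. The causes were not tested.

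Same-numbered libraries correlated at -0.07, 0.02, 0.07 and -0.06 in their deviations from the group means, so the numbers were not taken as pairs. The summed neutrophil markers did follow the number, at 157, 228, 203 and 278 FPKM in LysM0 to LysM3 and 152, 250, 195 and 267 FPKM in K2KO0 to K2KO3. The summed macrophage markers did not follow it, and whether the numbers mark a shared preparation was not tested. The replicate block gave 2057 genes and 10 members, adding Atp6v1f, and with it Eif4ebp2 was called (limma adjusted p = 0.0357) while Kptn and Ncoa7 were not (0.0534 and 0.0511). The replicate block with the GC content and length correction gave 947 genes and 3 members, namely Lamtor4, Nprl2 and Atp6v0c, without Rragd (limma adjusted p = 0.0517).

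Precision rests on 4 libraries a group and on FPKM without counts, so the error of low genes such as Rragd cannot be split into counting and biological parts.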
